A study of Mus musculus with 12 samples.

Results

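Collagen chain genes encode the alpha chains from which collagen molecules are assembled, and their transcripts were measured in ventricles of C57BL/6 mice kept in hypoxia or normoxia. The genes were chosen by name: every row whose mouse symbol is "Col", a number, "a" and a number. This gave 44 of the 39210 genes in the table, of which 11 encode fibrillar chains, 8 basement membrane chains and 25 chains of other kinds. The labels name the tissue as heart, and the design text speaks of frozen ventricular samples without saying left or right. There were 12 directional mRNA libraries, with 3 in each of 4 groups: hypoxic males, normoxic males, hypoxic females and normoxic females. Chamber oxygen for the hypoxic mice was taken down by 1% a day for 14 days until it reached 7%, where it stayed for 2 weeks, while the normoxic mice had 20.9% oxygen for 4 weeks. No label says whether each library is a different mouse, so the tests compare differences with library-to-library spread alone, and that spread may be technical.

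Alpha chains wind around each other into a rope-like helix, and the type of chain decides what the molecule builds. Types I, III and V form the banded fibrils of the cardiac interstitium, which are made mainly by fibroblasts and carry tension, while type IV forms the sheet-like network of the basement membrane under endothelium and around cardiomyocytes. Other collagens decorate the surface of fibrils, form beaded filaments or open lattices around cells, or span the plasma membrane.

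Library totals lay between 14915830 and 19397851 estimated counts, and the share of counts from the mitochondrial genome was 15.8% to 23.1% in hypoxic and 24.5% to 29.3% in normoxic libraries. Levels of a gene across libraries are given as CPM, estimated counts scaled to a library size that was corrected by the TMM method. Levels are compared between genes only as TPM, an abundance scaled to transcript length. Ventricular cardiomyocyte markers were abundant in every library, with a summed level over 10 genes of 39315 to 57954 CPM in hypoxic and 50012 to 57120 CPM in normoxic libraries. Male hypoxia libraries 2 and 3 stood apart: the summed level of 9 valve and cartilage markers was 35.6 and 22.1 CPM there and 2.65 to 8.38 CPM in the other libraries, with Matn3 at 0 in all 12. Their Myl7, an atrial myosin light chain, reached 57.9 CPM, against at most 0.78 CPM in hypoxic females and 0.55 CPM in normoxic libraries. Among the 9 valve and cartilage markers, Comp reached 24.6 CPM in hypoxic males and Fmod, the next highest there, 4.05 CPM. Both genes also count below as partners of collagen fibrils. Because male hypoxia libraries 2 and 3 stood apart, results are also given without them.

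Collagen transcripts were concentrated in few genes. By mean TPM over the 12 libraries, 8 genes reached at least 10 TPM, 19 reached at least 1 TPM, and 10 stayed under 0.1 TPM. The 5 most abundant, Col4a1, Col3a1, Col4a2, Col15a1 and Col1a2, held 67.3% of all collagen TPM, and the top 10 held 87.9%. Next in the order came Col6a2, Col6a1, Col1a1, Col6a3 and Col5a2. This order depends on the deposited average transcript lengths, which differed between libraries for some genes. They ran from 1843 to 3906 bases for Col15a1 and from 2689 to 3607 bases for Col3a1, but only from 6301 to 6365 bases for Col4a1. Mean levels of neighbours such as Col4a1 (55.4 TPM) and Col3a1 (54.3 TPM), or Col6a2 (16.6 TPM) and Col6a1 (16.5 TPM), lay well within the spread of libraries, which ran from 23.7 to 110.1 TPM for Col4a1 and from 9.94 to 102.3 TPM for Col3a1.

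A filter on low counts left 33 of the 44 genes for testing, namely 8 fibrillar, all 8 basement membrane and 17 other chains. Of these, 30 had enough counts in at least 3 normoxic libraries, and 3 (Col26a1, Col9a2 and Col8a2) entered only through the hypoxic libraries. The 11 untested genes never exceeded 15 counts in a library. They were Col2a1, Col9a1, Col9a3, Col10a1 and Col11a1, whose products are known from cartilage, together with Col6a4, Col6a5, Col17a1, Col19a1, Col24a1 and Col25a1. Col11a1 was highest in male hypoxia libraries 2 and 3, at 0.62 and 0.76 CPM, and at most 0.12 CPM elsewhere, and the part of the valve and cartilage markers in this was not tested.

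Summed over all 44 genes, collagen transcripts reached 264, 456 and 466 TPM in the hypoxic male libraries, against 136, 156 and 152 TPM in normoxic males. In females the sums were 218, 495 and 525 TPM in hypoxia, against 253, 236 and 152 TPM in normoxia. Every hypoxic male library was above every normoxic male one, whereas female hypoxia library 1 lay inside the range of the normoxic females. These sums carry no TMM correction, so their differences between libraries need not match those in CPM. For Col4a1, 6365 bases long in every male library, the relative male rise was larger in TPM than in CPM. Its mean was 65.8 TPM in hypoxic and 26.9 TPM in normoxic males, against 583 and 319 CPM. Fibrillar chains made up 41.8% ± 2.41 of collagen TPM in hypoxic males and 30.4% ± 1.78 in normoxic males (SD, n = 3 each). The fibrillar share was 32.8% ± 1.76 in hypoxic females and 26.4% ± 5.70 in normoxic females (SD, n = 3 each). Basement membrane chains held 40.5% ± 1.64 of collagen TPM in hypoxic males, 47.5% ± 1.65 in normoxic males, 46.1% ± 1.64 in hypoxic females and 53.8% ± 9.55 in normoxic females (SD, n = 3 each). The wide spread in normoxic females came with library 3, where fibrillar chains held 19.9% and basement membrane chains 64.6%.

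**Figure D1:**
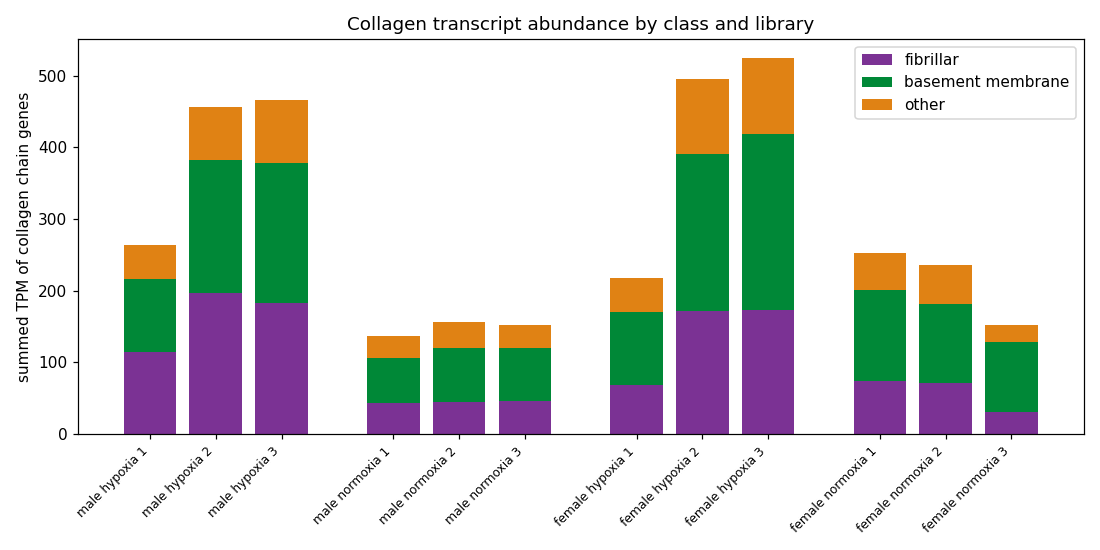
Summed TPM of collagen chain genes, without TMM correction, in each of the 12 libraries, stacked by class (bars from 0). The hypoxic male libraries sum to 264, 456 and 466 TPM and the normoxic male libraries to 136, 156 and 152 TPM, while female hypoxia library 1 sums to 218 TPM, below female normoxia libraries 1 and 2.

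Averaged over the sexes, 13 of the 33 tested collagen genes were higher in hypoxia and 1 was lower at an adjusted p under 0.05, where 15.0% of all 13960 tested genes were called higher and 12.9% lower (27.9% in either direction). By class, 6 of 8 fibrillar, 3 of 8 basement membrane and 4 of 17 other chains rose, and 1 other chain fell. The median log2 fold change (hypoxia over normoxia) was 1.06 for fibrillar, 0.59 for basement membrane and 0.57 for other chains, and -0.01 over all tested genes. The other chains include Col26a1 (1.09), Col9a2 (1.37) and Col8a2 (1.24), which entered the test only through hypoxic libraries. Their rise is thus favoured by the filter and lifts that median, and none of them was called. Without male hypoxia libraries 2 and 3 the count fell to 4 higher (Col12a1, Col5a2, Col1a1 and Col27a1) and 1 lower (Col6a6), in a fit that called 8.83% of all genes. Of the genes not called there, Col3a1 had a log2 fold change of 1.13, Col1a2 of 0.94, Col16a1 of 1.00 and Col5a1 of 0.75. Col4a1, Col4a2, Col18a1, Col8a1 and Col14a1 were not called there either. Of the hypoxic males that fit keeps only library 1. On the log2 scale, the CPM of these genes in that library was 0.44, 0.54, 0.73, 0.79 and 0.54 above the mean of normoxic males, in that order. Leaving out female hypoxia library 1 and female normoxia library 3, a choice made after the data were seen, gave 19 higher and 1 lower, with 38.5% of all genes called. In bulk tissue, more cells of a type and more RNA per cell cannot be told apart.

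**Figure D2:**
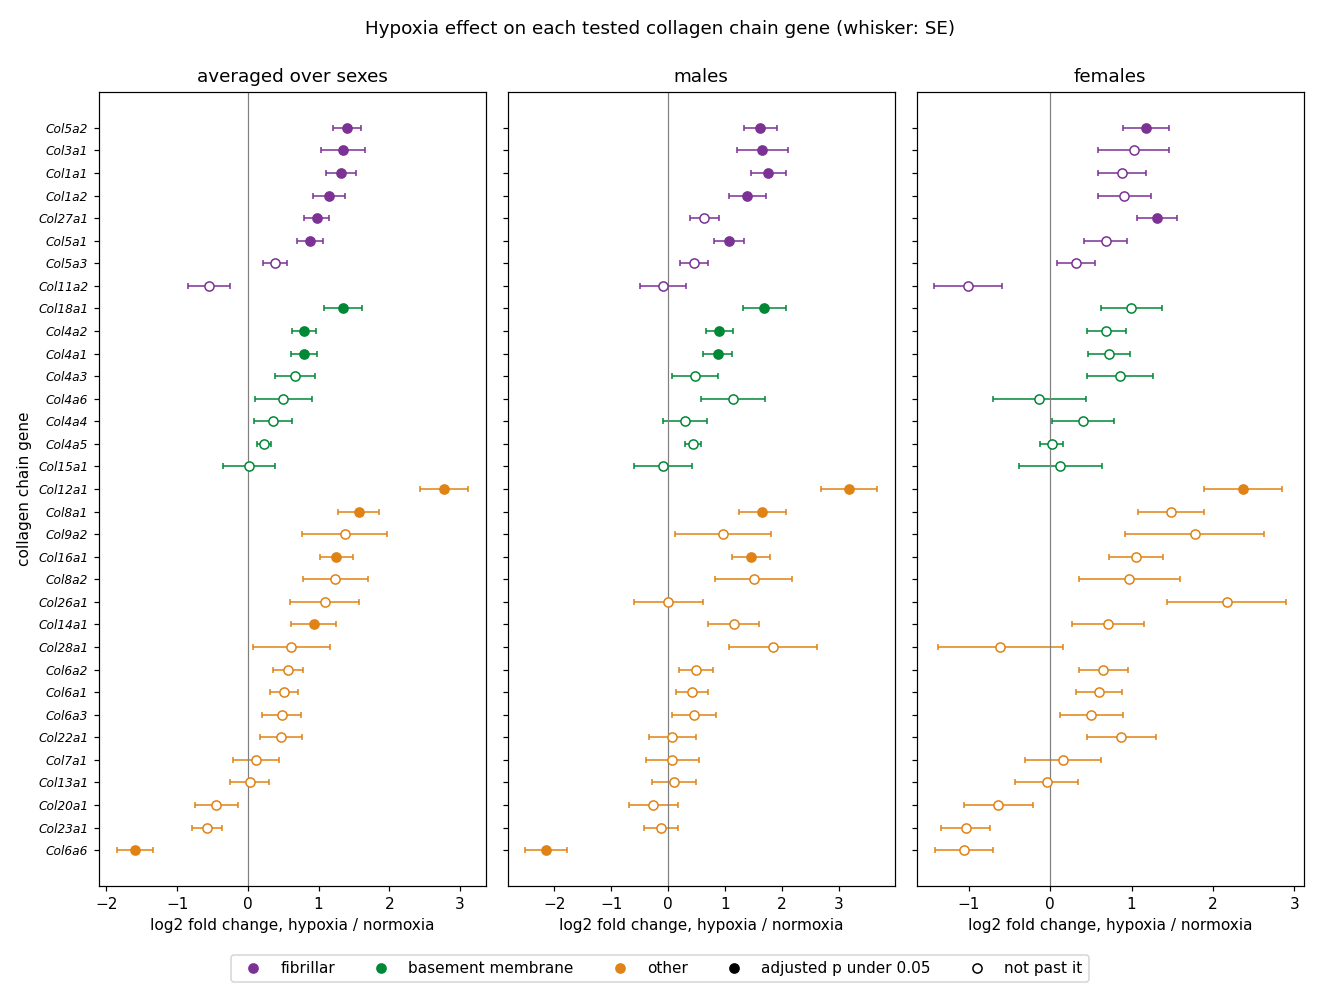
Log2 fold change of hypoxia over normoxia (x axis, SE as whiskers) for the 33 tested collagen chain genes, averaged over sexes, in males and in females; filled points have an adjusted p under 0.05. Of the 8 fibrillar genes, 6 are filled in the averaged panel, and Col12a1 lies farthest right and Col6a6 farthest left there.

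The main fibrillar chains rose together. Col1a1, which encodes the alpha 1 chain of type I collagen, had 129, 186 and 175 CPM in hypoxic males, against 44.9, 46.8 and 53.0 CPM in normoxic males. In females it had 67.1, 146 and 156 CPM in hypoxia, against 79.8, 76.0 and 44.2 CPM in normoxia. The male groups did not overlap, and female hypoxia library 1 fell below 2 of the 3 normoxic females. Averaged over sexes the log2 fold change of Col1a1 was 1.32 ± 0.21 (SE; adjusted p = 0.00175).

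Its partner chain in type I collagen, Col1a2, had 165, 252 and 244 CPM in hypoxic males, against 82.5, 85.5 and 84.3 CPM in normoxic males. Hypoxic females gave 88.7, 193 and 208 CPM of Col1a2, against 105, 104 and 51.7 CPM in normoxic females. Here too the male groups were separate and female hypoxia library 1 sat among the normoxic females, and the averaged log2 fold change was 1.15 ± 0.23 (SE; adjusted p = 0.00457).

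Col3a1 encodes the single chain of type III collagen, the finer fibrils that accompany type I. Its level was 304, 441 and 469 CPM in hypoxic males, against 136, 125 and 125 CPM in normoxic males. Among females it was 167, 416 and 399 CPM in hypoxia, against 217, 207 and 58.6 CPM in normoxia. Female normoxia library 3 was the lowest of all 12, and the averaged log2 fold change was 1.34 ± 0.31 (SE; adjusted p = 0.00926).

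Promoters of Col1a2 and Col3a1 are shown because both genes passed the test in the same direction. The stretches are the 250 bases before the RefSeq start (RefSeq table, build GRCm38.p6, + strand), chr6:4505368-4505617 for Col1a2 and chr1:45311288-45311537 for Col3a1. Capitals mark CCAAT in Col1a2, beginning 109 bases before the start, and TATAAA in Col3a1, beginning 117 bases before it.
Col1a2: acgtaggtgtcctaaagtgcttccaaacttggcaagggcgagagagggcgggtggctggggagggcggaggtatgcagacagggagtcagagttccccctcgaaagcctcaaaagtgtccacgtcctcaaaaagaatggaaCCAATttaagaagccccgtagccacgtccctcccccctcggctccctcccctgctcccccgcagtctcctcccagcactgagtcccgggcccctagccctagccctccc
Col3a1: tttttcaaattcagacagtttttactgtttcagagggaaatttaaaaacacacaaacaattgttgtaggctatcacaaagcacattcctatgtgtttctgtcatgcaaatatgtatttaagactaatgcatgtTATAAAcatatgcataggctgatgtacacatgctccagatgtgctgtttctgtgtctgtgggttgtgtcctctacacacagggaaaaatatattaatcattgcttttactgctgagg
The stretches differ in composition: the Col1a2 one also holds GGGCGG and, on the opposite strand, ACGTG, while the Col3a1 one holds no other motif searched here.

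RefSeq promoter entries matched 35 of the 44 genes, giving 38 collagen promoters, and the same 250 bases were searched on both strands. GGGCGG occurred in 22 of 38 collagen promoters (57.9%) and in 32.7% of all 32851 promoters. TATAAA was found in 5 of 38 (13.2%, against 12.4% of all), CCAAT in 13 of 38 (34.2%, against 33.8%), and ACGTG or GCGTG, the core of the hypoxia response element, in 11 of 38 (28.9%, against 38.6%). Overlaps between motifs were not removed.

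Type V chains, which sit inside type I fibrils and set their diameter, passed for Col5a2 and Col5a1 and not for Col5a3. Col5a2 had 61.7, 100.1 and 110.3 CPM in hypoxic males, against 29.9, 28.2 and 30.2 CPM in normoxic males. In hypoxic females its values were 42.0, 94.2 and 95.9 CPM, against 37.0, 36.3 and 29.3 CPM in normoxic females. Neither sex showed an overlap, and the averaged log2 fold change was 1.40 ± 0.20 (SE; adjusted p = 0.00105). Col5a1, the chain that makes up most of a type V molecule, averaged 62.8 ± 8.66 CPM in hypoxic males and 29.8 ± 1.40 CPM in normoxic males, and 57.1 ± 19.1 CPM in hypoxic females and 35.6 ± 11.1 CPM in normoxic females (SD, n = 3 each). Its averaged log2 fold change was 0.88 ± 0.19 (SE; adjusted p = 0.00639), and that of Col5a3, a further type V chain, was 0.39 ± 0.17 (adjusted p = 0.112).

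Col27a1, a fibrillar chain best known from cartilage, had 8.48, 7.77 and 11.2 CPM in hypoxic males, against 5.72, 5.44 and 6.48 CPM in normoxic males. In females the level was 11.1, 21.5 and 17.3 CPM in hypoxia, against 7.02, 7.95 and 5.18 CPM in normoxia. All hypoxic libraries of a sex exceeded its normoxic ones, and Col27a1 rose with an averaged log2 fold change of 0.97 ± 0.17 (SE; adjusted p = 0.00286). The remaining tested fibrillar gene, Col11a2, ranged from 1.18 to 4.15 CPM in hypoxic and 2.45 to 6.23 CPM in normoxic libraries and did not pass (log2 fold change -0.55 ± 0.29, adjusted p = 0.182).

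**Figure D3:**
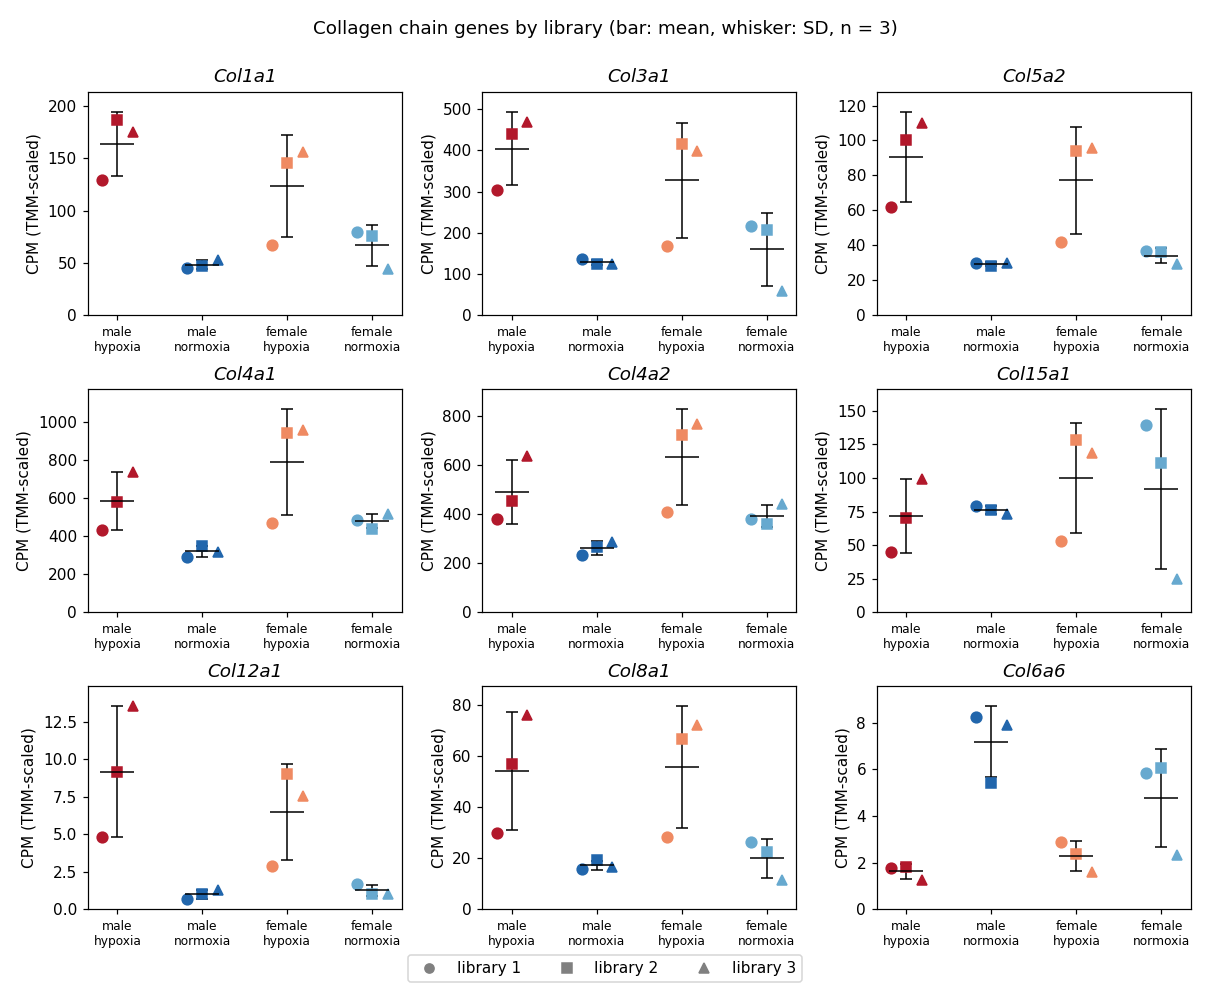
CPM (y axis, from 0) of 9 collagen chain genes in the 4 groups; symbols are single libraries, horizontal bars the mean and whiskers the SD (n = 3). Col5a2, Col12a1 and Col8a1 are higher in every hypoxic library than in any normoxic library of the same sex, Col6a6 is lower in hypoxic males without overlap, and Col15a1 overlaps in both sexes.

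Among basement membrane collagens, the pair that builds the common type IV network rose. Col4a1 had 433, 579 and 738 CPM in hypoxic males, against 290.3, 349 and 318 CPM in normoxic males. In females its level was 469, 940.0 and 957 CPM in hypoxia, against 482, 438 and 513 CPM in normoxia. The 3 hypoxic males were above all normoxic males, whereas female hypoxia library 1 lay within the normoxic range. Its averaged log2 fold change was 0.80 ± 0.18 (SE; adjusted p = 0.00796).

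Col4a2, the partner chain, had 379, 454 and 635 CPM in hypoxic males, against 231, 264 and 288 CPM in normoxic males. Hypoxic females had 410.3, 721 and 768 CPM of it, against 378, 358 and 441 CPM in normoxic females. The pattern over libraries was that of Col4a1, with a log2 fold change of 0.80 ± 0.17 (SE; adjusted p = 0.00581). Female normoxia library 3, the lowest of its group for Col1a1, Col1a2 and Col3a1, was the highest of its group for both type IV genes.

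The head-to-head arrangement of these genes is shown because the ratio of their transcripts was compared between groups. In the RefSeq table (GRCm38.p6) the Col4a2 start on the + strand and the Col4a1 start on the - strand face each other and overlap by 22 bases at chr8:11312805-11312826, printed here on the + strand with GGGCGG in capitals.
Col4a2 and Col4a1: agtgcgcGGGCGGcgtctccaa
The TPM ratio of Col4a1 to Col4a2 was 1.12 ± 0.02 in hypoxic males and 1.14 ± 0.15 in normoxic males, and 1.18 ± 0.07 in hypoxic females and 1.17 ± 0.09 in normoxic females (SD, n = 3 each). Between hypoxia and normoxia the log2 ratio changed by less than 0.01 (exact permutation test within sex, two-sided, p = 0.995).

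The other type IV chains, which form networks of more restricted tissues such as the kidney, did not pass. Col4a5 had 36.7, 51.1 and 48.5 CPM in hypoxic males, against 38.4, 33.9 and 28.1 CPM in normoxic males, and the groups overlapped. In females it had 37.5, 36.1 and 32.2 CPM in hypoxia, against 34.9, 35.7 and 33.7 CPM in normoxia, a difference within the spread. The averaged log2 fold change of Col4a5 was 0.23 ± 0.10 (adjusted p = 0.0984). Those of Col4a3, Col4a4 and Col4a6 were 0.67 ± 0.29, 0.35 ± 0.27 and 0.50 ± 0.40, with adjusted p-values of 0.105, 0.357 and 0.370.

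Col15a1 and Col18a1 encode the multiplexins, collagens that carry sugar chains and attach basement membranes to the matrix beside them. Col15a1 had 44.9, 70.4 and 99.6 CPM in hypoxic males, against 79.2, 76.4 and 73.5 CPM in normoxic males. Its values were 53.0, 128 and 119 CPM in hypoxic females, against 139, 111 and 25.0 CPM in normoxic females. Both comparisons overlapped, and the averaged log2 fold change was 0.02 ± 0.36 (SE; adjusted p = 0.978), or -0.21 without female normoxia library 3. Col18a1, whose end fragment is endostatin, averaged 35.4 ± 16.5 CPM in hypoxic males and 10.9 ± 1.71 CPM in normoxic males (SD, n = 3 each), without overlap. In females Col18a1 averaged 27.6 ± 10.8 CPM in hypoxia and 13.9 ± 3.41 CPM in normoxia (SD, n = 3 each). Female hypoxia library 1, at 15.3 CPM, lay inside the normoxic female range of 9.93 to 16.0 CPM. Col18a1 rose with an averaged log2 fold change of 1.35 ± 0.27 (adjusted p = 0.00451).

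The other collagens held both the largest rise and the one fall. Col12a1, a chain that coats fibrils and links them to their surroundings, had 4.83, 9.15 and 13.6 CPM in hypoxic males, against 0.69, 1.03 and 1.30 CPM in normoxic males. Hypoxic females had 2.90, 9.04 and 7.55 CPM of it, against 1.67, 1.05 and 1.05 CPM in normoxic females. All 6 hypoxic libraries exceeded all 6 normoxic ones, and the averaged log2 fold change of 2.78 ± 0.34 (SE; adjusted p = 0.000498) was the highest of the 33.

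These Col12a1 values rest on 49 to 266 counts in hypoxic and 11 to 26 counts in normoxic libraries. The deposited average transcript length of Col12a1 was 3736 to 4390 bases in hypoxic males and 11261 bases in each normoxic male library. In females the length was 4580 to 5022 bases in hypoxia and 2032 to 5140 bases in normoxia. With these lengths as an offset the averaged log2 fold change of Col12a1 was 3.34, and in males it was 4.69 in place of 3.18.

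Col16a1 and Col14a1 belong to the same family of fibril-associated collagens. Col16a1 averaged 20.2 ± 5.21 CPM in hypoxic males and 7.39 ± 1.99 CPM in normoxic males, and 17.7 ± 5.90 CPM in hypoxic females and 8.57 ± 2.83 CPM in normoxic females (SD, n = 3 each). The hypoxic and normoxic ranges did not meet in either sex, and the averaged log2 fold change was 1.25 ± 0.24 (SE; adjusted p = 0.00348). Col14a1 ranged from 13.4 to 33.1 CPM in hypoxic and from 6.35 to 22.3 CPM in normoxic libraries. Its log2 fold change of 0.93 ± 0.32 only just passed (adjusted p = 0.0478), and the call was lost, with adjusted p-values of 0.0617 to 0.111, without any 1 of male hypoxia libraries 2 or 3, male normoxia libraries 1, 2 or 3, female hypoxia libraries 2 or 3, or female normoxia library 1.

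Col8a1, which forms the short-chain lattice found in vessel walls and under endothelium, had 29.7, 56.7 and 76.0 CPM in hypoxic males, against 15.8, 19.1 and 16.6 CPM in normoxic males. In females it had 28.5, 66.7 and 72.2 CPM in hypoxia, against 26.2, 22.3 and 11.5 CPM in normoxia. Every hypoxic library lay above the normoxic ones of its sex, by a narrow margin for female hypoxia library 1, and the averaged log2 fold change was 1.57 ± 0.29 (SE; adjusted p = 0.00318). Col8a2, its partner, averaged 0.197 TPM over the 12 libraries, where Col8a1 averaged 5.06 TPM. The Col8a2 mean includes 0.83 TPM in female hypoxia library 1, from 12 counts at a deposited length of 533 bases, against 4082 bases elsewhere. Col8a2 had 0.33 to 2.08 CPM in hypoxic and 0.19 to 0.99 CPM in normoxic libraries. It did not pass (log2 fold change 1.24 ± 0.46, adjusted p = 0.0643).

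The beaded filaments of type VI, which surround cells and link them to the interstitial matrix, are built from the chains of Col6a1, Col6a2 and Col6a3. Col6a1 had 80.9, 88.5 and 124 CPM in hypoxic males, against 72.0, 75.1 and 73.0 CPM in normoxic males. In females Col6a1 had 86.3, 159 and 160.3 CPM in hypoxia, against 107, 106 and 54.5 CPM in normoxia. The males did not overlap and the females did, and the averaged log2 fold change of 0.51 ± 0.20 did not pass (adjusted p = 0.0796).

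Col6a2 closely followed, with 79.1, 90.9 and 129 CPM in hypoxic males, against 71.4, 75.0 and 67.3 CPM in normoxic males, and 88.3, 159 and 159.9 CPM in hypoxic females, against 104, 106 and 49.6 CPM in normoxic females. Col6a3 had 29.5, 33.1 and 51.5 CPM in hypoxic males, against 28.2, 28.2 and 27.2 CPM in normoxic males, and 39.5, 65.9 and 67.5 CPM in hypoxic females, against 54.0, 52.0 and 15.6 CPM in normoxic females. Their log2 fold changes of 0.57 ± 0.21 and 0.48 ± 0.27 did not pass (adjusted p = 0.0652 and 0.210). Without female hypoxia library 1 and female normoxia library 3, all of Col6a1, Col6a2 and Col6a3 passed, at log2 fold changes of 0.50, 0.55 and 0.39.

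Col6a6, a long alternative to the Col6a3 chain, moved the opposite way. It had 1.79, 1.81 and 1.27 CPM in hypoxic males, against 8.24, 5.44 and 7.90 CPM in normoxic males. Its level in females was 2.90, 2.36 and 1.61 CPM in hypoxia, against 5.86, 6.08 and 2.34 CPM in normoxia. The male groups were far apart, while female normoxia library 3 fell among the hypoxic females. Col6a6 fell by 1.60 ± 0.26 on the log2 scale (adjusted p = 0.00167), on 25 to 49 counts in hypoxic and 38 to 131 counts in normoxic libraries.

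The remaining 8 tested genes of this class averaged at most 2.06 CPM and did not pass. Their log2 fold changes ran from -0.58 ± 0.21 for Col23a1, a transmembrane collagen (adjusted p = 0.0594), to 1.37 ± 0.60 for Col9a2, a chain known from cartilage (adjusted p = 0.110). Col7a1, the anchoring fibril collagen of skin, and Col13a1, a transmembrane collagen of cell junctions, had log2 fold changes of 0.11 ± 0.33 and 0.03 ± 0.27.

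**Figure D4:**
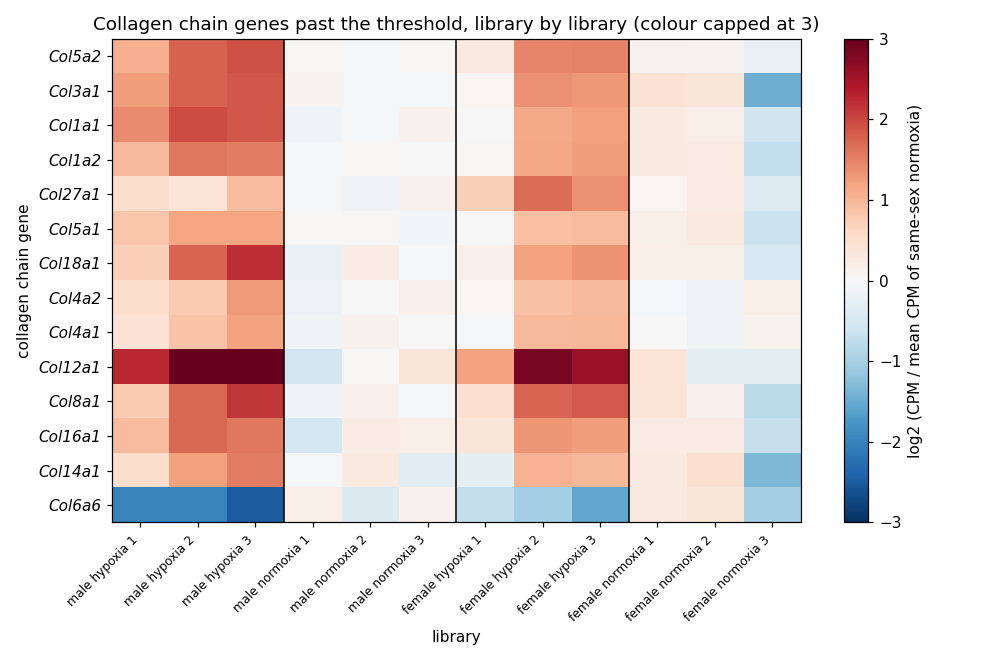
Log2 of CPM over the mean CPM of normoxic libraries of the same sex, for the 14 collagen chain genes past the threshold (rows) in the 12 libraries (columns); red is higher and blue lower, with colours capped at 3 in either direction. Female hypoxia library 1 is close to its normoxic group for most genes, and female normoxia library 3 is below its group for the fibrillar genes but not for Col4a1 and Col4a2.

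Within males, 11 collagen genes rose and 1 fell, where 8.47% of all tested genes were called higher and 7.10% lower (15.6% in either direction). In the order of their p-values the rises were Col12a1, Col1a1, Col5a2, Col18a1, Col16a1, Col1a2, Col8a1, Col5a1, Col4a2, Col3a1 and Col4a1, with log2 fold changes from 0.87 for Col4a1 to 3.18 for Col12a1. Col6a6 fell by 2.14 on the log2 scale. Male calls numbered 4 without male normoxia library 1, 6 without library 2 and 5 without library 3 of that group, where 6.66%, 9.10% and 7.47% of all genes were called. They numbered 5 without male hypoxia library 2 and 4 without male hypoxia library 3, where 6.99% and 6.16% of all genes were called. None was called without both of these hypoxic libraries, a fit that called 0.450% of all genes and in which the 1 hypoxic male library that remains is assumed to vary like the other groups. The male log2 fold changes in that fit were 1.42 for Col1a1, against 1.76 with all libraries, and 2.26 for Col12a1, against 3.18.

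Within females, 3 collagen genes rose and 0 fell, where 3.97% of all tested genes were called higher and 2.02% lower (5.99% in either direction). They were Col27a1 (log2 fold change 1.31 ± 0.25, adjusted p = 0.0168), Col12a1 (2.37 ± 0.48, adjusted p = 0.0218) and Col5a2 (1.18 ± 0.29, adjusted p = 0.0383). At an unadjusted p under 0.05 there were 13 higher and 3 lower, where 24.7% of all tested genes passed in either direction. The count at an adjusted p under 0.05 differed between tools and settings: DESeq2 called 10 collagen genes (12.1% of all genes), limma voom 1 (4.99%), edgeR with a transcript length offset 0 (2.59%) and edgeR on the female libraries alone 0 (0.299%). It was 13 without female hypoxia library 1 (14.5% of all genes), 0 without female hypoxia library 2 or 3 (0.524% and 0.385%), and 1 without female normoxia library 1 or 2 (1.63% and 1.03%).

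Hypoxic males lay wholly above normoxic males for 18 of the 33 genes (54.5%), where 21.5% of all tested genes did so. Hypoxic females lay wholly above normoxic females for 7 genes (21.2%, against 13.2% of all tested genes). In both sexes at once this held for 5 genes, Col5a2, Col12a1, Col16a1, Col27a1 and Col8a1 (15.2%, against 7.79% of all tested genes). The 18 male genes include Col9a2 and Col8a2 and the 7 female genes include Col26a1, which entered the test only through hypoxic libraries. Among the other 30 genes the counts were 16 in males and 6 in females. Col6a6 in males (3.03%, against 19.8% of all tested genes) and Col23a1 in females (3.03%, against 12.7%) were the genes wholly below normoxia, and 0 genes were so in both sexes (6.92% of all tested genes).

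The difference between the sexes in the hypoxia effect passed for no collagen gene in edgeR or DESeq2, and over all tested genes edgeR called 0.00716%. At an unadjusted p under 0.05, which 6.79% of all tested genes reached, Col26a1 had a higher effect in females (log2 difference 2.16 ± 0.97). By the same measure Col28a1 had a lower effect in females (-2.46 ± 1.09), and both had an adjusted p of 0.730. Col28a1 rested on 8 to 128 counts in a library. Col26a1, which entered the test only through hypoxic libraries, rested on 1 to 21 counts, with 1 to 4.15 in normoxic females. For Col1a1, with log2 fold changes of 0.88 in females and 1.76 in males, the female minus male difference was -0.88 ± 0.42 (SE; adjusted p = 0.730). So a call in males and none in females is not by itself a difference between them.

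Females and males were also compared at each oxygen level, and no collagen gene passed in edgeR or DESeq2 (0.150% of all tested genes were called in hypoxia and 0.0716% in normoxia by edgeR). In hypoxia, 1 gene was higher in females and 1 lower at an unadjusted p under 0.05, where 9.63% of all tested genes passed in either direction. These were Col27a1, at 16.6 ± 5.26 CPM in females and 9.15 ± 1.82 CPM in males, and Col4a5, at 35.3 ± 2.73 CPM in females and 45.5 ± 7.66 CPM in males (SD, n = 3 each). In normoxia, 3 were higher in females (Col5a3, Col4a2 and Col4a1) and 1 was lower (Col26a1) by the same measure, where 7.29% of all tested genes passed. Col26a1 had only 1 to 4.15 counts in normoxic females and 8 to 14.2 counts in normoxic males. For Col4a1 the levels were 478 ± 38.1 CPM in normoxic females and 319 ± 29.5 CPM in normoxic males, a log2 difference of 0.58 ± 0.25 (SE; adjusted p = 0.676).

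TPM ratios were compared for 5 pairs of chains of the same collagen type and for Col1a1 to Col3a1, chains of different collagens, by an exact two-sided permutation test within sex over 400 relabelings, whose smallest p is 0.005. The Col5a1 to Col5a2 ratio was 0.56 ± 0.10 in hypoxic males and 0.79 ± 0.07 in normoxic males, and 0.58 ± 0.05 in hypoxic females and 0.86 ± 0.23 in normoxic females (SD, n = 3 each). The log2 ratio was lower by 0.53 in hypoxia by the exact permutation test at p = 0.01, which did not hold after adjustment over the 6 pairs (0.06). It passed without female normoxia library 2 or 3, at log2 differences of -0.49 and -0.65 (adjusted p = 0.045 and 0.015).

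The Col1a1 to Col1a2 ratio was 0.66 ± 0.03 in hypoxic males and 0.51 ± 0.04 in normoxic males, and 0.67 ± 0.0035 in hypoxic females and 0.69 ± 0.07 in normoxic females (SD, n = 3 each). Its log2 difference of 0.17 did not pass (exact permutation p = 0.08, adjusted 0.16), and it passed without female normoxia library 3 (0.21, adjusted p = 0.015 by the same exact test). Col6a1 and Col6a2 stayed near parity, at 0.97 ± 0.03 in hypoxic males and 1.02 ± 0.05 in normoxic males, and 0.98 ± 0.01 in hypoxic females and 1.03 ± 0.06 in normoxic females (SD, n = 3 each; exact permutation p = 0.05, adjusted 0.15). Without female normoxia library 2 their log2 difference of -0.084 passed (adjusted p = 0.045 by the exact permutation test). Neither Col1a1 to Col3a1 (exact permutation p = 0.755) nor Col8a1 to Col8a2 (exact permutation p = 0.8) passed. The Col8a1 to Col8a2 ratio was 4.40 in female hypoxia library 1, where the Col8a2 length was short, and at least 18.9 in every other library.

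Genes that make, cross-link, bind or break down collagen were read from 6 lists in the averaged contrast, where the called shares of all genes are those given above. Of 19 tested genes for chain folding and secretion, 8 rose and 1 fell (median log2 fold change 0.21). On the log2 scale Sparc, a collagen-binding matrix protein, rose by 1.40 and Plod3, a lysyl hydroxylase, by 0.54. P4hb, a subunit of prolyl 4-hydroxylase, rose by 0.37, and P3h4, by name a member of the prolyl 3-hydroxylase family, fell by 0.69. The collagen chaperone Serpinh1 (0.21, adjusted p = 0.378) and the prolyl 4-hydroxylase subunit P4ha1 (0.01, adjusted p = 0.947) did not pass.

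Of 13 genes for propeptide cleavage and cross-linking, 8 rose and 0 fell (median 0.84). They included the cross-linking enzymes Lox (log2 fold change 2.28), Loxl1 (0.74) and Loxl3 (1.14) and the procollagen N-proteinase Adamts2 (1.41). Among 15 partners of fibrils 7 rose and 1 fell (median 0.67), with fibronectin, Fn1, at 1.67, periostin, Postn, at 2.65, biglycan, Bgn, at 1.33 and tenascin C, Tnc, at 2.37. Decorin, Dcn, a proteoglycan that coats fibrils, did not pass (0.28, adjusted p = 0.0600).

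In the basement membrane list 7 of 15 rose and 1 fell (median 0.45), among them the nidogen gene Nid1 (0.70), the perlecan gene Hspg2 (0.56) and the laminin gene Lamc1 (0.44). The laminin chains Lamb2 (0.01) and Lama2 (0.04) did not pass. Of 10 collagen receptors 7 rose and 0 fell (median 0.51), with the integrin Itga1 at 0.80, the endocytic receptor Mrc2 at 0.88, the adhesion receptor Adgrg1 at 0.60 and the integrin Itga10 at 1.02. Of 13 genes for collagen breakdown 5 rose and 0 fell (median 0.10): the protease inhibitors Timp1 (2.37) and Timp2 (0.52), the proteases Mmp14 (1.09) and Mmp2 (0.83), and cathepsin K, Ctsk (1.00).

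Without male hypoxia libraries 2 and 3 the rises in these lists were 3 of 19, 5 of 13, 5 of 15, 4 of 15, 3 of 10 and 2 of 14, in the order given, and 0 genes fell. Without female hypoxia library 1 and female normoxia library 3 they were 9 of 19, 8 of 13, 8 of 15, 8 of 16, 8 of 10 and 6 of 14, with 2, 0, 1, 1, 0 and 0 genes lower. That fit called 38.5% of all genes in either direction, and the share for the fit before it is given above with the collagen counts. Some genes count in more than 1 list, among them Sparc, Postn, Comp and Fabp4.

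**Figure D5:**
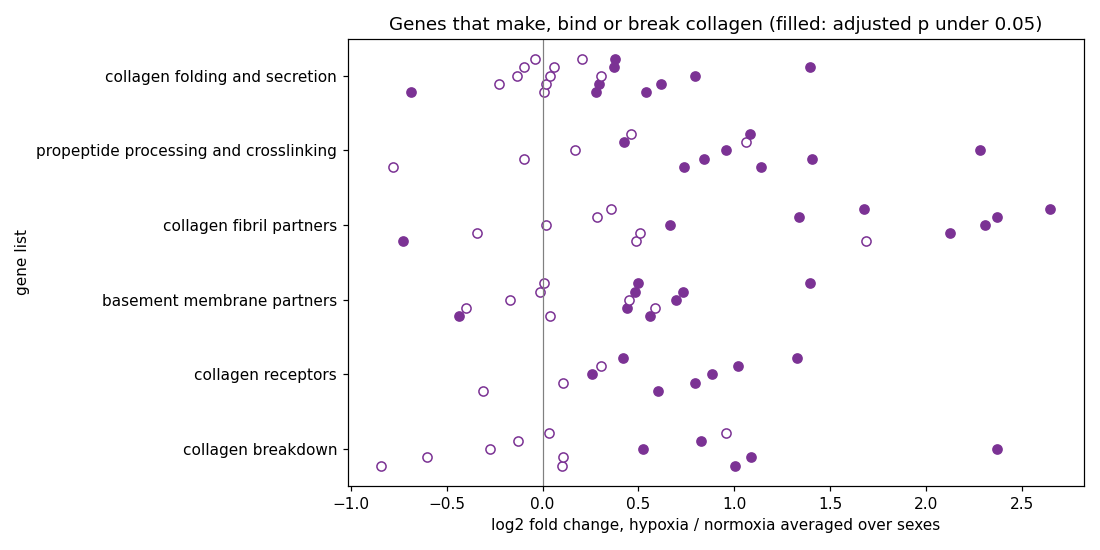
Averaged log2 fold change of hypoxia over normoxia (x axis) for each tested gene of 6 lists (y axis); filled points have an adjusted p under 0.05 and vertical offsets within a list only separate points. Lox at 2.28 and Postn at 2.65 lie farthest right in their lists.

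Markers of fibroblasts and endothelium, cell types that can make collagen, were read from lists in the averaged contrast. The shares of all genes called, with all libraries and without male hypoxia libraries 2 and 3, are those given above with the collagen counts. Of 12 fibroblast markers 7 rose and 0 fell, among them Vim (log2 fold change 1.20) and Meox1 (1.14). The other 5, Dcn (0.28), Ddr2 (0.30), Lum (0.51), Gsn (-0.05) and Dpt (0.02), did not pass. The summed level of the 12 was 1914 to 2801 CPM in hypoxic and 1777 to 2199 CPM in normoxic libraries, ranges that overlap. Of 12 endothelial markers 10 rose and 0 fell, with Vwf at 1.38, Eng at 0.89, Cdh5 at 0.75 and Pecam1 at 0.70 and sums of 2429 to 3208 CPM in hypoxic and 1595 to 2508 CPM in normoxic libraries. Kdr (-0.19, adjusted p = 0.157) and Cldn5 (0.40, adjusted p = 0.285) did not pass. Kdr had 114 to 153 CPM in hypoxic males, wholly below the 165 to 214 CPM of normoxic males, and its female groups overlapped. None of these fibroblast and endothelial markers was at 0 in any library except Cthrc1, in 2 libraries. Without male hypoxia libraries 2 and 3, 4 of 12 fibroblast and 5 of 12 endothelial markers rose and 0 fell.

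Other cell types were read in the same way. Of 10 mural cell markers 5 rose and 1 fell (sums of 1103 to 1746 CPM in hypoxia and 998 to 1177 CPM in normoxia), and 3 of 8 macrophage markers rose (198 to 330 CPM, against 167 to 271 CPM). Of 5 tested mesothelial and epicardial markers 2 rose (11.8 to 25.5 CPM, against 5.49 to 13.6 CPM), with Msln at 0 in 11 libraries. Valve and cartilage markers gave 3 of 4 higher, atrial markers 4 higher and 1 lower of 5 (196 to 1732 CPM, against 94.9 to 278 CPM), and adipocyte markers 1 of 4 higher (778 to 1210.3 CPM, against 534 to 997 CPM, almost wholly Fabp4), with Fgf12 and Plin1 at 0 in all 12 libraries. None of 7 Schwann cell markers passed (lowest adjusted p = 0.0837, for Prnp), and 2 of 10 ventricular cardiomyocyte markers fell. Without male hypoxia libraries 2 and 3 the rises were 1 of 10 mural, 2 of 8 macrophage, 2 of 6 mesothelial and epicardial, 0 of 4 valve and cartilage, 2 of 5 atrial and 0 of 4 adipocyte markers, with 1 atrial marker lower, and no Schwann or ventricular cardiomyocyte marker passed. The part of these cell types in the collagen results was not tested.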

How the data were processed

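Estimated counts per gene, TPM and average transcript lengths were deposited by the authors in 1 table. The submitters' processing notes name FastQC, Salmon and the build GRCm39; versions and the strand setting are not given in the sources used here. Symbols were found for 38941 of 39210 genes. Counts were rounded, filtered with filterByExpr (minimum 10 counts in the median library), scaled by TMM and fitted with edgeR 4.0.16 (R 4.3.3) as 4 group means over 12 libraries (8 residual degrees of freedom). Adjusted p-values are Benjamini-Hochberg values over 13960 genes from edgeR's two-sided quasi-likelihood test, with a threshold of 0.05, and standard errors come from the F statistic. Ratios used the deposited TPM. The method was tested on simulated data. Alternatives were RLE factors, DESeq2 1.42.0, limma 3.58.1 voom, a length offset, other filters, a replicate block, removal of mitochondrial and haemoglobin genes, only the compared libraries and libraries left out.

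Classes, lists and members were chosen with earlier results of these data known. Library values are given for the 4 most abundant genes of each class and the 5 with the smallest p-values in the averaged contrast, and from each list up to 4 members with the smallest p-values and up to 2 that did not pass. Other genes, such as Timp2, Myl7 or the further fibroblast markers that did not pass, were named after their values were seen. No 2 libraries of the same group agreed within sampling noise.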

Additional observations from a re-analysis of the deposited data

How the results depend on the processing

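Of the 14 collagen genes called in the averaged contrast, 13 kept their call when any 1 library was left out, and Col14a1 did not. The counts called ranged from 13 to 19 (averaged), 4 to 14 (males) and 0 to 13 (females) over the 12 such fits, and stayed at 0 for the other contrasts. The share of all genes called moved as well, from 18.8% to 32.3% (averaged), 6.16% to 21.2% (males) and 0.385% to 14.5% (females). The averaged count was 5 without male hypoxia libraries 2 and 3 and 9 when female normoxia library 3 was left out as well, and the male count was 0 in both. The female count was 10 with DESeq2 (12.1% of all genes), 1 with limma voom (4.99%), 0 with the transcript length offset (2.59%) and 0 with only the compared libraries (0.299%). It was 16 without female hypoxia library 1 and female normoxia library 3 (18.6% of all genes, added after seeing the data). Females against males in hypoxia gave 1 collagen gene in that fit, and the share of all genes called in that contrast is not given here. The cause was not tested.

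Same-numbered libraries correlated over 0.1 in 1 of 18 pairs (-0.05 to 0.19), so the numbers were not taken as pairs. With the replicate block 13 collagen genes were called in the averaged contrast (28.2% of all genes), 12 in males (16.2%) and 3 in females (5.73%). Col14a1 was not among the 13 (adjusted p = 0.0606).

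Signs reversed for genes that did not pass. Col15a1 gave -0.092 with the length offset, -0.32 without male hypoxia libraries 2 and 3, -0.55 with female normoxia library 3 out too and -0.051 without female hypoxia library 1 and female normoxia library 3; over single libraries it ranged from -0.21 to 0.23. Col20a1 gave 0.32 with the length offset. Without male hypoxia libraries 2 and 3, Col7a1 gave -0.47, Col4a6 -0.28, Col13a1 -0.030, Col4a4 -0.0037 and Col28a1 -0.15; with female normoxia library 3 out too, Col7a1 gave -0.47, Col4a6 -0.45 and Col4a4 -0.091. Col7a1 gave -0.0060 with the replicate block. Over single libraries Col7a1 ranged from -0.022 to 0.31 and Col13a1 from -0.16 to 0.18.

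For the log2 ratios, a pseudocount of 1 TPM gave -0.52 for Col5a1 to Col5a2 (adjusted p = 0.03, exact permutation), 0.0029 for Col4a1 to Col4a2 and 1.15 for Col8a1 to Col8a2, which was 0.27 from estimated counts and 0.016 without male hypoxia libraries 2 and 3. Leaving out single libraries gave -0.65 to -0.45 for Col5a1 to Col5a2, 0.14 to 0.21 for Col1a1 to Col1a2, -0.23 to 0.045 for Col1a1 to Col3a1, -0.053 to 0.044 for Col4a1 to Col4a2, -0.084 to -0.046 for Col6a1 to Col6a2 and -0.52 to 0.27 for Col8a1 to Col8a2. Depth limits Col12a1 in normoxia, where it had at most 26 counts in a library.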
